A study of Mus musculus with 4 samples.

Results

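The genes described are 9 stress-induced genes that lie outside the AP-1 and heat shock groups: the immediate early response genes Ier2, Ier3 and Ier5, the growth arrest and DNA damage genes Gadd45a, Gadd45b and Gadd45g, the phosphatase regulator gene Ppp1r15a, and the polo-like kinase genes Plk2 and Plk3. They were picked by gene symbol, and all 9 were found once each among the 37646 genes listed in the count files. Each was detected in every library, and all 9 passed the filter on low counts. The list was put together with earlier results on stress genes in these libraries known, so levels and spreads between libraries are given as descriptions.

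All 4 libraries came from 1 group, sorted living B220+ YFP+ spleen cells of C57BL/6 control mice of the genotype YFPstopF/+; Cg1Cre/+. In these mice a Cre recombinase is driven from the Cg1 locus and removes a stop cassette in front of a YFP reporter. Spleens were taken 10 days after a second injection of sheep red blood cells, the first having been given 20 days earlier. The labels call the cells normal germinal centre B cells, but YFP stays on in the descendants of any cell in which Cre was once active, memory and plasma cells included. The sources used here give neither the age of the mice nor whether a library held 1 spleen or several. The labels do not say whether each library was a separate animal, so the spread between these libraries may be technical in part. The p-values only compare a gene's spread between these libraries with that of genes at the same level. The lymphoma samples that the design names were not analysed here, and no other group could be set against these libraries.

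Poly(A) RNA was read as single ends of 50 nt, and the libraries, numbered 1 to 4, held 13777954 to 14629025 counts. B cell markers (8 of 8) and germinal centre markers (12 of 12) were above 0 in every library, and so were 10 of 10 T cell markers. Summed germinal centre markers were 2348, 1574, 2120 and 1717 normalised CPM (counts scaled to a library size corrected for composition) in libraries 1 to 4, and summed T cell markers were 347, 171, 128 and 318. The mitochondrial share of counts was 20.6, 23.3, 18.1 and 19.8%. The immunoglobulin share was 5.25, 5.48, 2.35 and 4.25%. Library 3 stood apart in 2 sex-linked transcripts picked out after their values were seen, with 1307 counts of the Y-linked Ddx3y, against 0 to 3 in the others, and 6 of Xist, against 8689 to 12160. Library 3 thus held RNA of a male and the others RNA of females, so it came from another animal than they did. For libraries 1, 2 and 4 these genes do not settle whether the animals differed.

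Stress-induced genes of this kind are transcribed within minutes of a signal, from promoters already prepared for it, and many of their transcripts are short-lived. Their products brake or redirect the response: GADD45 proteins bind the kinase MAP3K4 and so act on p38 and JNK, the Ppp1r15a product (GADD34) guides protein phosphatase 1 to the translation factor eIF2α, and the kinases PLK2 and PLK3 act in stress checkpoints. In germinal centre B cells such genes are reached by signals of the antigen receptor, of CD40 and of DNA damage.

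Ppp1r15a was the most abundant of the 9 genes at 448 ± 90.4 TPM (transcript abundance, as reads per length of exon scaled to the same total in each library; mean ± SD, n = 4 for every TPM value below). It ranked 147 among the 12475 genes with a mean of at least 1 CPM. Gadd45b (224 ± 48.3 TPM), Ier2 (217 ± 56.7 TPM) and Ier5 (204 ± 43.6 TPM) followed close together. Gadd45g (58.3 ± 15.6 TPM), Plk2 (44.4 ± 24.6 TPM), Plk3 (41.9 ± 13.3 TPM) and Gadd45a (31.4 ± 15.5 TPM) made up a lower tier. Ier3 stood last at 3.43 ± 0.86 TPM.

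The plot of TPM by gene shows where this order is firm. The step from Ppp1r15a down to Gadd45b was kept in 4 of 4 libraries, at 1.37 to 2.98 times, without overlap of the ranges. Ier5 exceeded Gadd45g in 4 of 4 libraries, at 2.73 to 4.58 times. Gadd45a exceeded Ier3 in 4 of 4 libraries, at 4.32 to 15.4 times, again without overlap. Gadd45b, Ier2 and Ier5 did not differ from each other beyond their spread, since Gadd45b exceeded Ier2 in 2 of 4 libraries and Ier2 exceeded Ier5 in 3 of 4. In the lower tier the ranges of neighbours overlapped as well: Plk2 exceeded Plk3 in 2 of 4 libraries, and although Plk3 exceeded Gadd45a in 4 of 4, the ratio came down to 1.02.

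**Figure D1:**
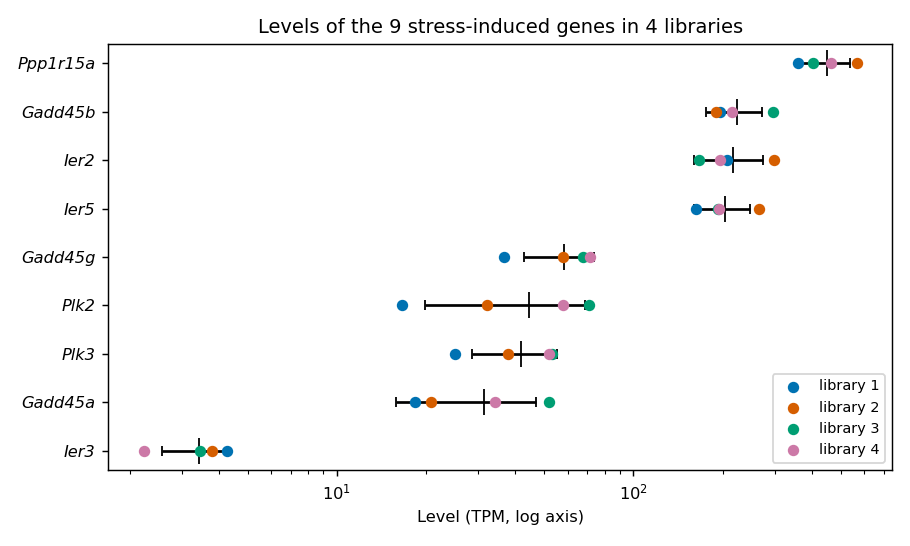
TPM on a log axis for each of the 9 genes, from the highest mean at the top to the lowest. Points are the 4 libraries, the upright tick is the mean and the bar is 1 SD. Ppp1r15a lies above all others, Gadd45b, Ier2 and Ier5 lie together near 200 TPM, and Ier3 lies alone below 5 TPM.

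The length used for each gene, the union of its annotated exons, touches the lower tier. The union includes transcripts with retained introns, and for Plk2 it is 4491 bases against 2800 for the longest transcript. With the longest transcript as length Plk2 stood at 61.3 ± 33.2 TPM, above Gadd45g at 55.3 ± 14.4 TPM, and Gadd45a (39.0 ± 18.6 TPM) changed places with Plk3 (36.5 ± 11.2 TPM). Ppp1r15a stayed first and Ier3 last.

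The genes are short. Their spans ran from 1240 to 5799 bases with a median of 2362, whereas the 10757 tested protein-coding genes had a median span of 23661 bases. Ier2 (chromosome 8, 84661331 to 84662852) and Ier5 (chromosome 1, 155096361 to 155099636) each have 1 exon in the longest annotated transcript. Ier3 (chromosome 17, 35821684 to 35822923) and Ppp1r15a (chromosome 7, 45522916 to 45526268) have 2. The 3 GADD45 genes, on chromosomes 6, 10 and 13, have 4 each, and Plk2 (chromosome 13, 110395046 to 110400844) and Plk3 (chromosome 4, 117128655 to 117133963) have 14. Coordinates are those of GENCODE M21 on GRCm38.

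The stretches upstream of 5 genes are shown because these genes fall into 2 patterns across libraries, described further on, and because a cyclic AMP response element (CRE), the site of CREB and ATF factors, is found in some of them. Sequences are from RefSeq (GRCm38.p6), end next to the annotated transcript start, and read 5′ to 3′ on the strand of the gene. Capitals mark TGACGTCA, the full CRE, or its core TGACG, on either strand.
Ppp1r15a: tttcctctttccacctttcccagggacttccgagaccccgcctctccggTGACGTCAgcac
Ier5: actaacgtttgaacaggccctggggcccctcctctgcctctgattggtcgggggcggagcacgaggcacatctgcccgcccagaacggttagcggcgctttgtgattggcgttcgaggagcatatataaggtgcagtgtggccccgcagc
Plk2: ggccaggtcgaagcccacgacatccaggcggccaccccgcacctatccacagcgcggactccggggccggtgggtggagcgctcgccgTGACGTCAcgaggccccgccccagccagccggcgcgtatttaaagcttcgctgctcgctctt
Plk3: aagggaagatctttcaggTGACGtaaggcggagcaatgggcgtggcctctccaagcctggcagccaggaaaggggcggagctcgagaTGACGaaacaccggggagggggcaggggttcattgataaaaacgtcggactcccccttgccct
Gadd45a: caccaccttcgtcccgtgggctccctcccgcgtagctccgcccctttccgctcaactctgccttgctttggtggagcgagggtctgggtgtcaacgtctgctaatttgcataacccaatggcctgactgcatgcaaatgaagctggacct
They lie at chr7:45526269-45526329 (minus strand), chr1:155099637-155099786 (minus strand), chr13:110394894-110395043 (plus strand), chr4:117133964-117134113 (minus strand) and chr6:67037458-67037607 (minus strand), in the order printed.

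Promoters of 8 of the 9 genes matched the RefSeq table by symbol, and the 250 bases before each start were searched. The full CRE was found in 2 of them, Ppp1r15a and Plk2, and in 1.62% of 27025 promoters of the same length (2.88% of the 9025 that belong to genes tested here). It begins 12 bases before the RefSeq start in Ppp1r15a and 62 bases before it in Plk2. The core, which the full element contains, was found in 3 of the 8, with Plk3 added, and in 17.9% of all promoters (28.4% of those of tested genes). Plk3 holds it at 2 places, which begin 132 and 63 bases before the start. Ier5 and Gadd45a have neither in this window, nor has Gadd45g, which is not printed and whose profile across libraries is nearest to that of Plk3. The full CRE does not separate the patterns, since Ppp1r15a and Plk2 belong to different ones.

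The other motifs searched gave few matches to stress-responsive factors. No AP-1 site (TGANTCA, in 6.87% of all promoters), CArG box (1.4%) or heat shock element (0.4%) was found in any of them. An NF-κB site was found in Ier3 (3.75% of all promoters), an EGR site (GCGNGGGCG) in Gadd45b (4.65%, and 8.75% of those of tested genes), and a p53 decamer in Gadd45a and Ier5 (7.18%). TATAAA on the gene's strand was found in Gadd45b and Gadd45g (8.12%), and CCAAT in 5 of the 8 (34.5%). Except for TATAAA, both strands were searched, and apart from the CRE and its core no motif contains another. A match is a run of letters and not a measured binding site, and the lack of one says nothing of factors that bind elsewhere.

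The 3′ ends of the transcripts carry a second kind of regulatory sequence, AU-rich elements, which bind decay factors such as the Zfp36 product. The heptamer UAUUUAU was found in the 3′ untranslated regions of 5 of the 9 genes, and in 27.4% of 10590 tested genes with such a region. The shorter AUUUA, which the heptamer contains, was found in 6 of 9 and in 66.1% of the tested genes. The first heptamer of each of the 5, with its flanks, is printed because these are the members whose transcripts carry it. Capitals mark UAUUUAU, and letters are from GENCODE M21 transcripts on the transcribed strand.
Ppp1r15a: uuuccuauUAUUUAUuuauuuau
Plk3: gggggcauUAUUUAUggaccacu
Ier3: cuaauuaaUAUUUAUguauuuau
Plk2: aaacuuuuUAUUUAUuacagccc
Gadd45a: ugaaagguUAUUUAUgauaaagu

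Ppp1r15a has 4 AUUUA copies in a 3′ untranslated region of 76 bases. Among 276 tested genes with a region within 25% of that length, Ppp1r15a included, 0.362% had as many, which is Ppp1r15a alone. A heptamer was found in 1.45% of the 276, again with Ppp1r15a counted. The sets of like length for the other genes below include the gene itself as well. Plk3 has 4 AUUUA copies in 332 bases, a number reached by 1.26% of 1109 genes of like length, and Ier3 has 5 in 613 bases, reached by 2.27% of 1500. Plk2 (2 copies, 27.4% of 1517 genes reach it) and Gadd45a (2 copies, 24.2% of 1431) are less unusual. Ier5 has 2 AUUUA copies without a heptamer in 2143 bases. Ier2, Gadd45b and Gadd45g have neither. No RNA half-life was measured in these libraries.

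Differences between libraries are given as CPM normalised by the trimmed mean of M values (TMM), a scale on which the median tested gene lay within 0.01 log2 units of its own mean in every library. Ier2, a nuclear immediate early protein gene, had 144, 229, 100.2 and 130 normalised CPM in libraries 1 to 4. Library 2 was highest and library 3 lowest, a ratio of 2.29 (1.44 without library 2). Ier5, whose product has been linked to heat shock factor regulation in human cells, had 244, 440, 249.6 and 276 normalised CPM. Here library 2 stood above the other libraries, which lay within 1.13 times of each other, and the full ratio was 1.80.

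Ier3, a survival-linked gene that NF-κB induces, had 2.20, 2.16, 1.54 and 1.10 normalised CPM, from 31, 28, 23 and 16 counts. The exact Poisson 95% interval of its counts was 21.1 to 44.0 in library 1 and 9.15 to 26.0 in library 4. These intervals are wide, and the difference itself was not tested. Such intervals cover counting error alone, as PCR copies of a molecule were not told apart.

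Gadd45a, a p53 target gene, had 14.8, 18.4, 36.2 and 26.3 normalised CPM in libraries 1 to 4. Libraries 3 and 4 were high and libraries 1 and 2 low, with a ratio of 2.44 between library 3 and library 1. Gadd45g, a cytokine-induced member of the same family, had 19.6, 34.3, 31.3 and 36.3 normalised CPM. Library 1 alone was low, and the others lay within 1.16 times of each other. Gadd45b, an NF-κB target gene, had 143, 152.5, 185 and 149.0 normalised CPM, the flattest profile of the 9, with library 3 highest and a ratio of 1.29 (1.07 without library 3).

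Ppp1r15a, which feeds back on the integrated stress response by restoring eIF2α, had 481, 840.5, 466 and 593 normalised CPM. Library 2 was highest and library 3 lowest, at a ratio of 1.80 (1.27 without library 2). Libraries 1 and 3 were near a tie, at 1.03 times, and by TPM library 1 was the lowest (359 against 403 TPM in library 3). Plk2, a p53-responsive kinase gene that also acts at centrioles, had 33.9, 72.8, 125 and 113 normalised CPM. Library 1 was the lowest, library 2 lay between, and libraries 3 and 4 were high. The ratio of library 3 to library 1 was 3.69, the widest of the 9 genes, and was 1.72 without library 1. Plk3, a stress checkpoint kinase gene, had 28.9, 48.1, 52.9 and 57.1 normalised CPM, low in library 1, with a ratio of 1.98 (1.19 without library 1).

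**Figure D2:**
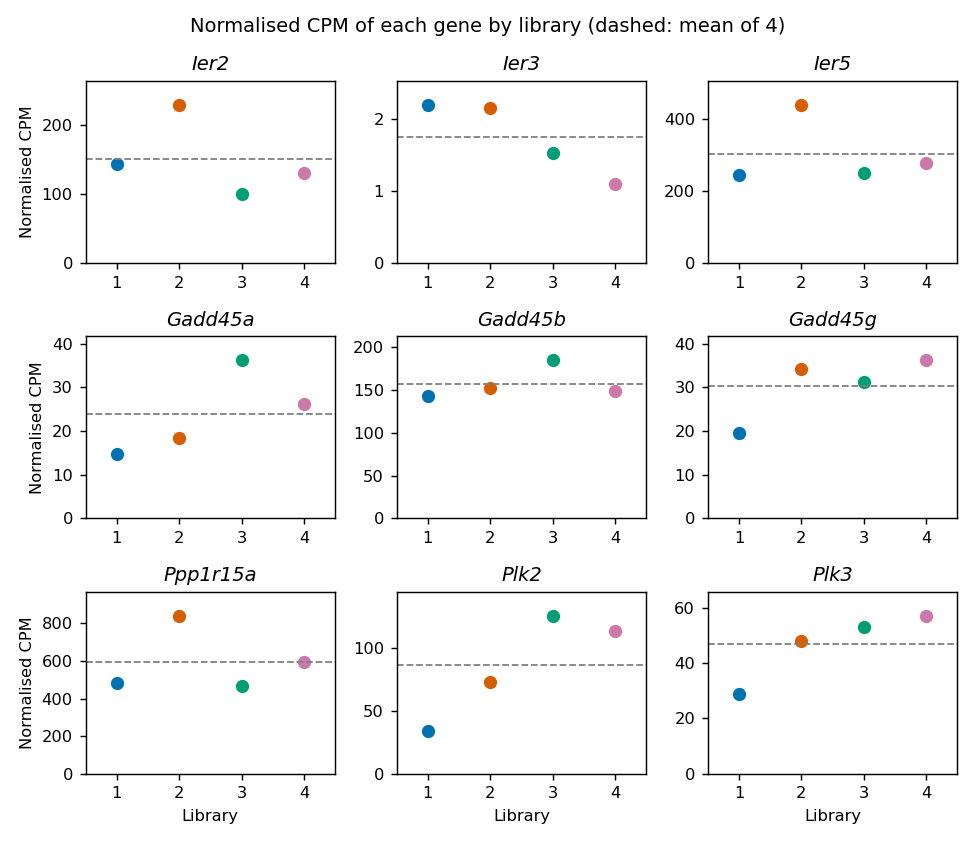
Normalised CPM of each gene (vertical axis, from 0) in libraries 1 to 4 (horizontal axis), 1 point per library, with the mean of the 4 as a dashed line. Ier2, Ier5 and Ppp1r15a are highest in library 2, and Plk2, Plk3, Gadd45a and Gadd45g are lowest in library 1. Ier5 and Gadd45b are lowest in library 1 as well.

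Of the 9 genes, 3 were highest in library 2, as were 25.1% of the 11982 tested genes, and 6 were lowest in library 1, as were 28.4% of them. Library 3 was lowest for 2 of the 9, and for 26.5% of all tested genes. The highest library was at least 2 times the lowest for 4 of the 9 (Plk2, Gadd45a, Ier2 and Ier3), and for 17.1% of all tested genes. Ier3, with few counts, was at this line (2.006) and fell to 1.968 with plain CPM, whereas Plk3 rose from 1.977 to 2.015. The median over the 9 genes of the deviation from each gene's own mean, on the log2(CPM + 0.5) scale, was -0.26 in library 1, 0.21 in library 2, 0.079 in library 3 and 0.036 in library 4. The same median over all tested genes was between -0.0034 and 0.0076.

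The 9 genes did not move as 1 block. Grouped after their values were seen, and so without a test, 2 profiles stand out, of which the second is loose. Ier5 and Ppp1r15a had almost the same profile, with a root mean square distance of 0.076 log2 units over the 4 libraries, and Ier2 lay 0.20 from each. Gadd45g and Plk3 were 0.10 apart, Gadd45a was 0.30 from Plk3, and Plk2 was 0.35 from Gadd45a. These links form a chain, since Gadd45g was 0.39 from Gadd45a and 0.47 from Plk2. Gadd45g lay nearer to Ppp1r15a (0.33), Ier5 (0.35) and Gadd45b (0.32). Plk2 lay 0.38 from Plk3, farther than Gadd45b did (0.33). The pairs farthest apart were Ier3 and Plk2 (0.99) and Ier2 and Plk2 (0.99).

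The distance between the profiles of Plk2 and of Ier2 can also be put as a ratio within each library, which restates it. Plk2 counts divided by Ier2 counts gave 0.236, 0.318, 1.25 and 0.872 across libraries 1 to 4. Divided by Ppp1r15a counts they gave 0.0705, 0.0867, 0.269 and 0.191. Both ratios were lower in the first pair of libraries than in the other pair.

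**Figure D3:**
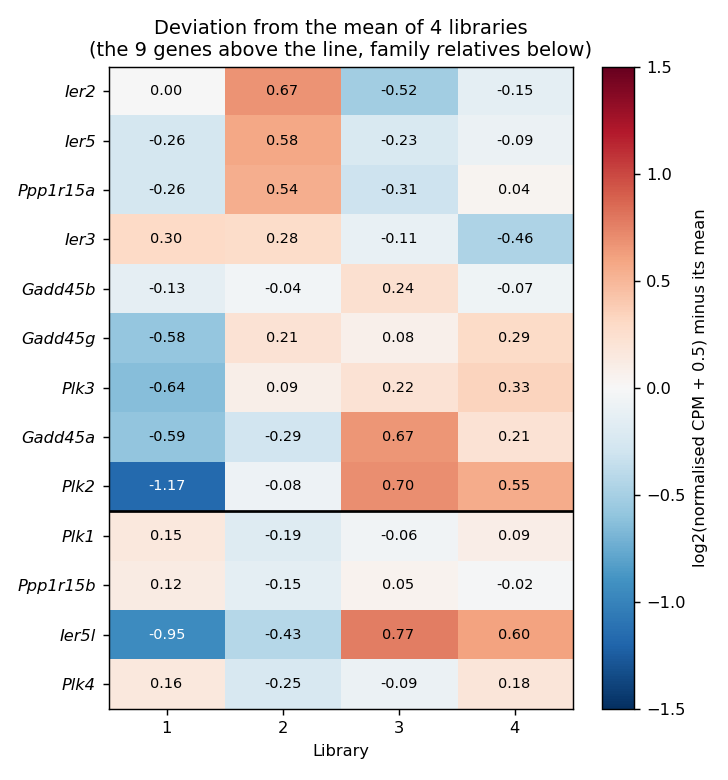
Deviation of log2(normalised CPM + 0.5) from its mean over the 4 libraries (colour and printed value), for the 9 genes above the line and their family relatives below it. Ier2, Ier5 and Ppp1r15a are red in library 2, Plk2, Plk3, Gadd45a and Gadd45g are blue in library 1, and Plk1, Plk4 and Ppp1r15b stay pale.

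The spread between libraries was far above counting error for all but Ier3. The coefficient of variation of normalised CPM was 48.1% for Plk2, where counting alone would give 2.84%, and 39.6% for Gadd45a (counting 5.40%). It was 36.7% for Ier2 (2.18%), 29.1% for Ppp1r15a (1.10%) and 11.9% for Gadd45b (2.12%). For Ier3 it was 30.3%, with 20.2% from counting.

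Each gene's dispersion was also set against that of genes at the same level, by an edgeR quasi-likelihood fit to all tested genes. Plk2 stood at 21.3 times the trend, rank 99 of 11982. Ier2 stood at 9.31 times, Gadd45a at 6.20, Ier5 at 5.79, Plk3 at 4.91, Ppp1r15a at 4.61 and Gadd45g at 3.31 times. Gadd45b (1.01) and Ier3 (0.98) lay on the trend. The median was 4.91 over the 9 genes and 0.895 over all tested genes.

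None of the 9 passed the Benjamini-Hochberg threshold of 0.05 in that fit, which 1 of the 11982 genes passed (0.00835%). Unadjusted, 4 of the 9 had a p under 0.05 (Plk2, Ier2, Gadd45a and Ier5), beside 595 of all tested genes (4.97%). DESeq2 marked Plk2 as 1 of 159 dispersion outliers. Nothing is read from these counts, because variation of stress genes in these libraries was known when the list was made. Within the list the smallest edgeR adjusted p was 0.353, that of Plk2. Without library 2 the members under 0.05 unadjusted were Gadd45a, Plk2 and Plk3, and without library 1 they were Ier2, Ier5, Plk2 and Ppp1r15a. Without library 3, the male one, they were Ier2, Ier5, Plk2 and Plk3, and the ratio of highest to lowest library was 3.33 for Plk2, 1.77 for Ier2 and 1.77 for Gadd45a. Mean levels without it were 234 TPM for Ier2, 208 TPM for Ier5 and 201 TPM for Gadd45b, and 38.2 TPM for Plk3 and 35.5 TPM for Plk2.

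**Figure D4:**
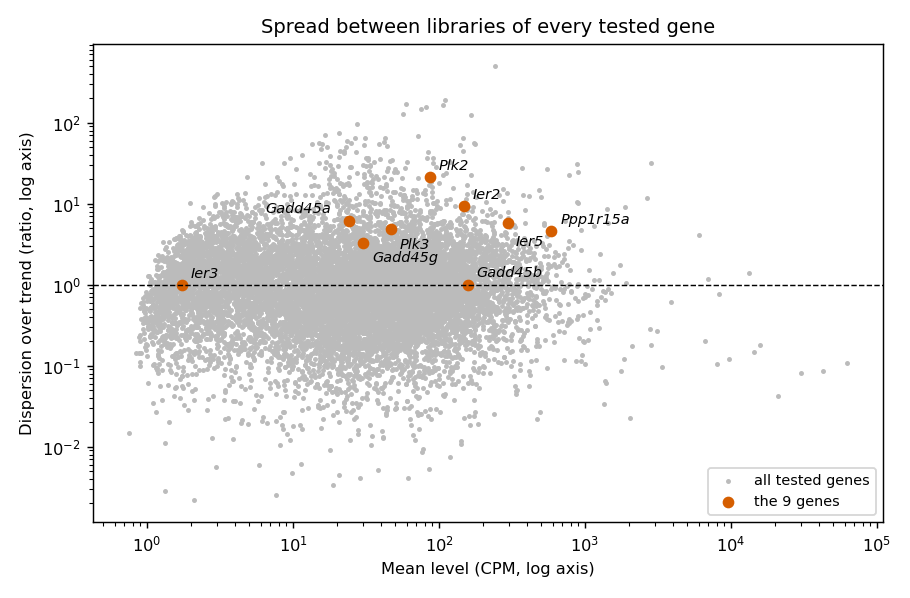
Dispersion of each gene over the trend at its level (vertical, log axis) against its mean CPM (horizontal, log axis), for all 11982 tested genes in grey and the 9 genes in orange. The dashed line is the trend. Plk2 is the highest of the 9 at 21.3, and Ier3 and Gadd45b lie on the line.

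Of 5 family relatives outside the list, 4 were measured. Plk1, the kinase that drives mitosis, had 90.0, 70.8, 77.7 and 86.4 normalised CPM in libraries 1 to 4, a ratio of 1.27 between its highest and lowest library. Plk4, the kinase of centriole duplication, had 39.5, 29.8, 33.3 and 40.1, a ratio of 1.35. Plk2 counts were 0.377 times Plk1 counts in library 1 and 1.03, 1.61 and 1.31 times in libraries 2 to 4. By TPM the order of Plk2 and Plk1 turned with the length used. Over union lengths Plk2 stood at 0.185, 0.504, 0.789 and 0.640 times Plk1 in libraries 1 to 4, and over the longest transcripts at 0.296, 0.808, 1.27 and 1.03 times. Plk3 stood at 0.279 times Plk1 by TPM in library 1 and at 0.590, 0.591 and 0.574 times in the others.

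Ppp1r15b encodes the constitutive partner of the same phosphatase. It had 142.5, 118, 135 and 129.0 normalised CPM, a ratio of 1.21, and by TPM Ppp1r15a exceeded it 6.43, 13.6, 6.57 and 8.76 times in libraries 1 to 4. Ier5l, the paralog of Ier5, departed from the other relatives. It had 6.60, 9.64, 22.8 and 20.3 normalised CPM, low in libraries 1 and 2 and high in libraries 3 and 4, with a ratio of 3.46. That order of low and high libraries is the one seen for Gadd45a and Plk2, not the one seen for Ier5.

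The pathways to which the 9 genes belong were described by lists. Of 22 integrated stress response genes tested, 3 were under 0.05 unadjusted in the variation fit, against the 4.97% of all tested genes. Atf4, the factor that translation control by eIF2α releases, had 383, 488, 538 and 494.5 normalised CPM, and Ddit3, its target that encodes CHOP, had 31.5, 63.2, 75.7 and 71.7. Both were lowest in library 1 and highest in library 3, whereas Ppp1r15a was highest in library 2. Ppp1r15a counts over Atf4 counts were 1.26, 1.72, 0.867 and 1.20 in libraries 1 to 4.

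Of 19 p53 target genes tested, 3 were under 0.05 unadjusted, with a median ratio of highest to lowest library of 1.53, against 1.42 over all tested genes. Genes of this list went different ways. Btg2, an antiproliferative gene, had 178.5, 258, 115 and 143 normalised CPM, highest in library 2 and lowest in library 3 as Ier2 was. Rrm2b, a ribonucleotide reductase subunit gene, had 33.9, 14.04, 14.8 and 18.4, highest in library 1. Bax, a pro-death gene, had 55.7, 59.3, 68.0 and 68.6, and Cdkn1a, the cell cycle inhibitor gene that GADD45 proteins are known to pair with, had 4.12, 5.40, 5.14 and 8.84. Of 14 genes of GADD45 partners tested, 0 were under 0.05 unadjusted (edgeR), and 0 passed the adjusted threshold. Pcna, the replication clamp to which GADD45 proteins bind, had 166, 133, 167 and 170.5.

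Of the AP-1 genes 6 of 8 were under 0.05 unadjusted, and of the other immediate early genes 18 of 41, beside 4.97% of all tested genes. Such counts were not particular to these lists, nor were they shared by all marker lists. T cell markers had 10 of 10, plasma cell markers 5 of 7, neutrophil markers 4 of 5 and germinal centre markers 5 of 12. Erythroid markers had 3 of 6 and light zone genes 3 of 11. Macrophage markers and dark zone genes had 1 of 10 each, B cell markers 0 of 8 and dendritic cell markers 0 of 5. The 8 tested AP-1 genes had median deviations of -0.15, 0.66, -0.46 and -0.018 log2 in libraries 1 to 4. Jun had 876, 1807, 247 and 687 normalised CPM and Fos 906, 1776, 313 and 679. Library 2 was highest and library 3 lowest for both, as for Ier2, with wider ratios of 7.32 and 5.67. Atf3, which is on both the AP-1 and the stress response list, had 11.6, 51.5, 29.1 and 50.2, lowest in library 1. The other immediate early genes had median deviations of -0.38, 0.17, -0.015 and 0.17, and 29 of the 41 were lowest in library 1.

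Heat shock genes, of which 15 were tested and 2 were under 0.05 unadjusted, had median deviations between -0.073 and 0.11. In library 3 the median was -0.063 but the mean was -0.29, drawn down by Hspa1a (-2.05) and Hspa1b (-1.83). Library 3 was lowest for 7 of the 15 (26.5% of all tested genes) and library 1 for 6 (28.4%). Hspa1a, an inducible chaperone gene, had 57.1, 32.3, 5.68 and 36.5 normalised CPM, and its near-identical copy Hspa1b, with which it may share reads, had 79.5, 43.0, 10.4 and 59.2. Both were lowest in library 3, as Ier2, Jun and Fos were, but highest in library 1.

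**Figure D5:**
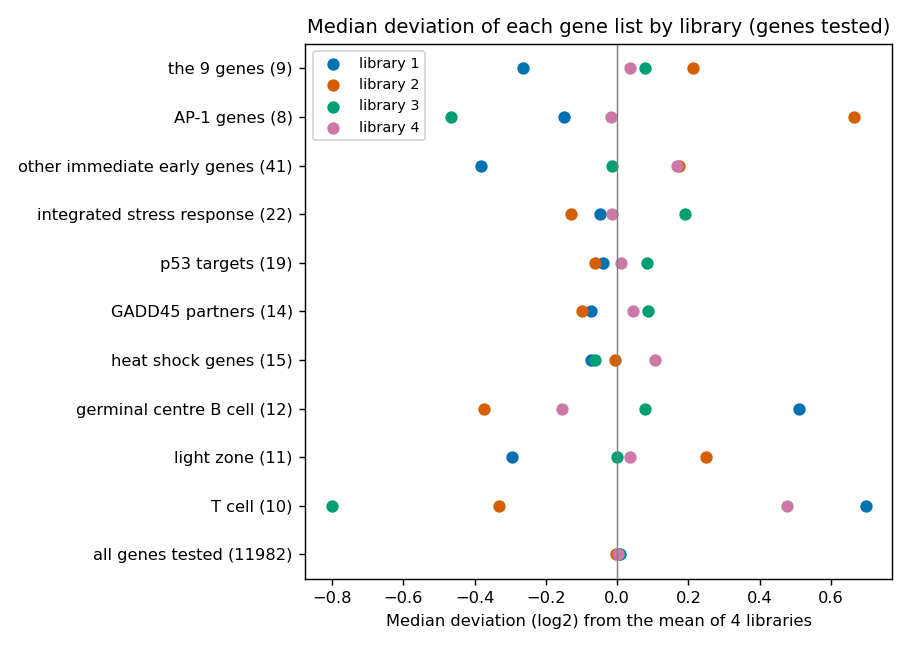
Median over each list (rows, with the number of tested genes) of the log2 deviation from the mean of 4 libraries, 1 point per library. The 9 genes are lowest in library 1 and highest in library 2, AP-1 genes are lowest in library 3, and all tested genes lie at 0.

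Some lists of marker genes of cell types and zones moved with these profiles and others did not, and their part in them was not tested. Median deviations of the 8 B cell markers lay between -0.15 and 0.15. Those of the 10 T cell markers were 0.70, -0.33, -0.80 and 0.48 in libraries 1 to 4. Of the 12 germinal centre markers, 7 were highest in library 1, as were 3457 of the 11982 tested genes. Library 1 was where 6 of the 9 stress-induced genes were lowest. The 12 markers had a median deviation of 0.51 log2 in library 1 and of -0.37 in library 2. Light zone genes, of which 11 were tested, had a median deviation of -0.30 in library 1 and of 0.25 in library 2. Their list overlaps that of the other immediate early genes, since Nfkbia is on both. Dark zone genes, of which 10 were tested, had median deviations of 0.14, -0.21, 0.11 and -0.093 in libraries 1 to 4. Plasma cell markers, of which 7 were tested, had median deviations of 0.26, 0.35, -0.67 and 0.048 in libraries 1 to 4. Of the 7, 6 were lowest in library 3, as Ier2 was and as were 26.5% of all tested genes. Plasma cell markers summed to 2924, 3054, 1474 and 2664 normalised CPM, and all 8 listed were above 0 in every library. The immunoglobulin share was lowest in library 3 too. Summed T cell markers were highest in libraries 1 and 4, and no marker of that list was at 0 in any library. Neutrophil, erythroid, dendritic cell and macrophage markers summed to 46.1 to 128, 33.1 to 108, 72.1 to 103 and 184 to 283 normalised CPM. Of these, Elane and Retnlg alone were at 0 in some library. The mitochondrial share was highest in library 2, where Ier2, Ier5 and Ppp1r15a were highest. In bulk RNA of this kind fewer cells of a type and less RNA per cell cannot be told apart.

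The genes with the most similar profiles were sought for Ier2, Gadd45a and Plk2, which averaged 5 CPM or more and had ratios of 2 or more. The measure was the root mean square distance of centred log2 CPM over the 4 libraries. For Ier2 they were Cmah (0.028), Hic1 (0.040) and Ifi203 (0.055), out of 2951 genes compared. For Gadd45a they were Mbip (0.039), Cdt1 (0.054) and Slc2a1 (0.070), out of 2318. For Plk2 they were Atp5l (0.092), Per1 (0.14) and Nfil3 (0.16), out of 790. Per1, a clock gene, had 232, 392, 710.5 and 608 normalised CPM in libraries 1 to 4, and Nfil3, a basic leucine zipper gene, had 25.7, 45.1, 70.6 and 73.8. These distances rest on 4 libraries and carry no test.

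Reads of overlapping genes may touch 3 members, since no source says whether counting used the strand. E230016M11Rik shares 337 exonic bases with Gadd45a on the opposite strand and had 12 to 33 counts per library, against 209 to 542 for Gadd45a. Tctex1d4 shares 84 with Plk3 and had 5 to 23 counts, and Tulp2 shares 12 with Ppp1r15a and had 22 to 53 counts.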

How the data were processed

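Poly(A) RNA of 4 libraries of 1 group was read. The authors deposited raw counts of reads for each gene, as whole numbers in a separate table for every library. FastQC, STAR 2.5.2b, featureCounts 1.6.0 and the build mm10 are named, per the submitters' processing notes. Annotation release, strand setting and handling of multi-mapped reads are not given in the sources used here. Library numbers are names only.

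The members and gene lists were chosen with earlier results of these data known. TPM used union exon lengths of GENCODE M21, to which 37536 of 37646 identifiers matched (36825 with their version, Ier2 not among them). All genes passing filterByExpr were fitted with glmQLFit of edgeR 4.0.16 (R 4.3.3), with TMM factors and only an intercept. The ratio of a gene's quasi-dispersion to the trend was compared with the F distribution, upper tail, with Benjamini-Hochberg adjustment at 0.05. DESeq2 1.42.0 served as an alternative. The fit was tested on simulated counts. Python 3.11.15 did the rest. Floors of 3 counts correspond to 0.205 to 0.218 CPM.

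By rule, genes to name were the 9 members, their relatives, the 3 highest by TPM and the 3 with the largest ratio of highest to lowest library of each list (mean of at least 5 CPM), and the 3 genes nearest in profile to a member. From the list genes, those the text turns on are given. Alternatives were other size factors, filters, tools, lengths and pseudocounts, and each library left out.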

Additional observations from a re-analysis of the deposited data

Results flagged for a closer look

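The library farthest from the others stood beyond Dixon's 95% critical value for 4 samples in 6 of 89 named genes. Chance alone flags about 1 in 20 among unselected, normally distributed values. Some of these genes were named for their wide ratios, so that rate is not their background. Ier5, a member, was highest in library 2 at 440 normalised CPM, against 244, 249.6 and 276 in libraries 1, 3 and 4. Egr2 was lowest in library 1 at 31.8 normalised CPM, against 60.6 to 62.0 in the others. Pcna was lowest in library 2 at 133 and Neil1 highest in library 3 at 572. The T cell gene Icos (14.7) and the globin gene Hbb-bs (40.6) were highest in library 4.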

How the results depend on the processing

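The number of variable genes was the least stable value. It was 1 in the edgeR fit, 1 with DESeq2 size factors or a mean of 1 CPM as the filter, 63 with the robust option, 159 by DESeq2 dispersion outliers and 262 without a filter on low counts. With 1 library left out it ran from 0 (without library 2) through 1 and 3 (without libraries 1 and 4) to 19 (without library 3). Without the filter 31026 genes were tested, 1466 had an unadjusted p under 0.05 and 1 member, Plk2, passed, as it did by DESeq2 (1 member). No member passed with any library left out, and 3 or 4 members were under 0.05 unadjusted. The median level of the 9 genes was 58.3 TPM, 126 with mitochondrial and immunoglobulin genes left out of the total, and 54.1 to 65.6 with 1 library left out. Of 117 gene values recomputed, 17 moved by more than the spread between libraries. They were the 9 levels on that smaller total, and 8 ratios after the library at one end had been left out. Plain CPM, DESeq2 size factors and the smaller total left the highest and lowest library of each member as given, except that on the smaller total Ier5 was lowest in library 3. No paired analysis was possible because there is 1 group. The 16 to 31 counts of Ier3 limit what can be said of it.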
